A study of Mus musculus with 2 samples.

Results

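The factors Hlf, Mecom, Meis1, Mllt3, Hoxa9, Erg, Lmo2, Tal1 and Runx1, which are known for keeping blood stem cells in their immature state, were followed across mouse bone marrow by single-cell RNA sequencing. The members were chosen by gene symbol, as 9 of the 31053 genes in the deposited gene list. FMT stands for faecal microbiota transplantation. The FMT-young library came from aged C57BL/6J mice that had been given the gut microbiota of young mice, and the FMT-aged library came from aged C57BL/6J mice given the microbiota of aged mice, so the recipients of both groups were aged. Each group has 1 library, and neither the number of mice behind a library nor their age or sex is given in the sources used here. In both groups, cells sorted as whole marrow, lineage-negative (Lin-) cells and Lin- cKit+ progenitors were mixed at 1:1:4, and every share of cells below is a share of that mixture. With 1 library per group no test between groups was possible. Differences are therefore given as values with exact intervals, which cover counting error and neither animal-to-animal nor library-to-library spread.

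Blood stem cells are held between self-renewal and commitment by a network of transcription factors that occupy shared enhancers. HLF is a bZIP factor of the proline and acidic amino acid-rich family, and MECOM is a zinc finger and PR domain protein whose EVI1 form marks long-term stem cells. MEIS1 is a homeodomain cofactor that binds DNA together with HOXA9, and MLLT3 (AF9) recruits the elongation machinery and the histone methyltransferase DOT1L and maintains human stem cells in culture. ERG is an ETS factor, LMO2 a bridging protein without DNA binding of its own, TAL1 a basic helix-loop-helix factor and RUNX1 the DNA-binding partner of CBFB. ERG, LMO2, TAL1 and RUNX1 belong, with FLI1, GATA2 and LYL1, to the group of factors known as the heptad.

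The promoters of members with contrasting patterns are shown first. Hlf and Mecom had the most similar levels across cell classes of all member pairs, and Runx1, which has a pair of known start sites far apart, had the least stem-restricted level. RefSeq promoter windows on GRCm38.p6, which run from 250 bases before to 50 after a start site, matched 8 of the 9 members (all but Lmo2) with 14 windows. Capitals mark a match to 1 of 6 motifs on either strand, and no matches overlap in the windows printed.
Hlf, chr11:90390868-90391167, minus strand: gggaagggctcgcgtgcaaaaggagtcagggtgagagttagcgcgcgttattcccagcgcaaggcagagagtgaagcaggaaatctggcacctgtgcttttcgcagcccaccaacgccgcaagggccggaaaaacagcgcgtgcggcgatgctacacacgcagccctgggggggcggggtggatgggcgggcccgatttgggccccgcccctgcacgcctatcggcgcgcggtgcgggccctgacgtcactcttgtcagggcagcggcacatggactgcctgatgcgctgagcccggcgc
Mecom, first window, chr3:30013155-30013454, minus strand: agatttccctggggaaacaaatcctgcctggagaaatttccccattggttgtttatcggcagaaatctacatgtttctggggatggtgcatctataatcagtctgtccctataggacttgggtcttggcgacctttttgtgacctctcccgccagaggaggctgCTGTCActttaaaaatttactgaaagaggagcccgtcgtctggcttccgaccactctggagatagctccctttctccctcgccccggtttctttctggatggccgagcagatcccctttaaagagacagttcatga
Mecom, second window, chr3:30509710-30510009, minus strand: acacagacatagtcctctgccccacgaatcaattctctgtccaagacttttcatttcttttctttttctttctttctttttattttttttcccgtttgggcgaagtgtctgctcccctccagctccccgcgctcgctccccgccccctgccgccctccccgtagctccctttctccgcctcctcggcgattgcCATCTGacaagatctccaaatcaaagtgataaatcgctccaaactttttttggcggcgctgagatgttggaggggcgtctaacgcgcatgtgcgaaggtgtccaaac
Runx1, distal start, chr16:92826025-92826324, minus strand: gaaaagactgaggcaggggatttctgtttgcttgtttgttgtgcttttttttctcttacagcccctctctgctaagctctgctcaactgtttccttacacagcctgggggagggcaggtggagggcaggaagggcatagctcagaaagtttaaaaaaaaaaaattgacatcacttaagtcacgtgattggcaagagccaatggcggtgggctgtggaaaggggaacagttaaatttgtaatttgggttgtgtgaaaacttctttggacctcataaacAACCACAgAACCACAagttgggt
Runx1, proximal start, chr16:92697280-92697579, minus strand: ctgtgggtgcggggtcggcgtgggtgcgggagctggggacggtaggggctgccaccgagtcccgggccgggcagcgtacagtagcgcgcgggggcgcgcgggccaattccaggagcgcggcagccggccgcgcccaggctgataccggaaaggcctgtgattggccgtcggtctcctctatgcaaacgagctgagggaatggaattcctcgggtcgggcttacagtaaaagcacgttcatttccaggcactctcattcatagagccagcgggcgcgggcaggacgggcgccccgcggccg
Tal1, first window, chr4:115056176-115056475, plus strand: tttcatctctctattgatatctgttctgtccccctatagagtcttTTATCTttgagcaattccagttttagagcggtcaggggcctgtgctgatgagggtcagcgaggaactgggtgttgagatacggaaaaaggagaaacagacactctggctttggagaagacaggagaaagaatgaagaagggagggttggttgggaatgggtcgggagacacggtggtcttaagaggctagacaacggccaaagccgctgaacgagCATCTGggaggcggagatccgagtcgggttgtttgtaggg

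The distal Runx1 window held 2 copies of the RUNX letters TGTGGTT, read as AACCACA on the strand printed, and was the only 1 of the 14 member windows with a copy. Over all 32851 RefSeq promoter windows, 5.27% held these letters. The first Tal1 window held the E-box letters CAGATG, printed as CATCTG, and the GATA letters AGATAA, printed as TTATCT. The E-box letters stood in 3 of the 14 member windows and in 17.2% of all windows, and the GATA letters in 2 of 14 and in 11.2% of all windows. The MEIS letters TGACAG, printed as CTGTCA in the first Mecom window, were found in 3 of 14 member windows and in 19.2% of all. The ETS letters AGGAAGT, present in 9.35% of all windows, and the PAR bZIP letters TTACGTAA, present in 0.119%, were in no member window, and the Hlf window had no match to any of the 6 motifs. A match describes the letters only, and 3' counts do not say which start site a transcript used.

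The deposited matrices held 214982156 UMIs (unique molecular identifiers, counted RNA molecules) in FMT-young and 207642851 in FMT-aged. Barcodes with at least 1000 UMIs, 500 genes and at most 10% mitochondrial UMIs were taken as cells, and 10793 FMT-young and 10320 FMT-aged cells remained after probable doublets were removed. The libraries shared 34 of these barcodes before doublet removal, 0.285% of the FMT-young and 0.300% of the FMT-aged ones. Cells were clustered without the 9 members and classes were named from markers that hold none of them, which gave 12 named classes and 5 unnamed clusters with at least 50 cells in each library. The class called HSC or MPP-like (haematopoietic stem cell or multipotent progenitor) was 1 cluster with 694 FMT-young cells, 6.43% of the library, and 1026 FMT-aged cells, 9.94%. It expressed 14 of 19 markers of the type above other cells, led by Myl10, Car2, Angpt1 and Ctla2a, with a median of 7185 UMIs per cell in FMT-young and 7558.5 in FMT-aged. Markers of other types were also present in it. The 19 markers of the type summed to 3300 CPM in FMT-young and 3375 CPM in FMT-aged. Those of granulocyte-monocyte progenitors (10 markers) summed to 3612 CPM in FMT-young and 3500 CPM in FMT-aged. Early myeloid progenitor markers (9, with Cd34 on both lists) summed to 2306 CPM in FMT-young and 2652 CPM in FMT-aged. The summed level of 9 monocyte progenitor markers was 768 CPM in FMT-young and 409 CPM in FMT-aged, and that of 10 neutrophil markers was 380 CPM in FMT-young and 197 CPM in FMT-aged. Of the monocyte progenitor sum, Klf4 alone gave 586 CPM in FMT-young and 203 CPM in FMT-aged. Irf8, also on that list, went the other way, with 55.7 CPM in FMT-young and 77.6 CPM in FMT-aged. CPM is the number of UMIs of the gene per 1000000 UMIs of all cells in the class. Levels are compared between classes and libraries for 1 gene at a time and not between genes, because 3' capture differs from gene to gene.

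Hlf and Mecom were the most stem-restricted members. Hlf stood at 355 CPM in FMT-young HSC or MPP-like cells (exact 95% Poisson interval 339 to 371) and at 266 CPM in FMT-aged ones (255 to 277). All other cells together had 8.35 CPM in FMT-young and 9.62 CPM in FMT-aged, so that the stem class was 42.5-fold higher in FMT-young and 27.7-fold higher in FMT-aged. Mecom had 135 CPM in FMT-young and 118 CPM in FMT-aged HSC or MPP-like cells, which was 66.1-fold above the other cells in FMT-young and 38.1-fold in FMT-aged. The class held 3.39% of the UMIs of FMT-young and 5.43% of those of FMT-aged, but 69.9% of the Mecom UMIs of FMT-young and 68.6% of those of FMT-aged. Of the Hlf UMIs it held 59.9% in FMT-young and 61.4% in FMT-aged. Next in order for both genes was cluster 11, an unnamed cluster led by Dntt, Flt3 and Adgrg1 with proliferation genes, at 41.3 CPM of Hlf in FMT-young and 48.6 CPM in FMT-aged. Early myeloid progenitor-like cells (Cd34 and Cpa3 positive) followed for Hlf, with 30.8 CPM in FMT-young and 30.9 CPM in FMT-aged. Between stem class and cluster 11 the Hlf level thus dropped 8.59-fold in FMT-young and 5.48-fold in FMT-aged. The locus of Hlf lies at chr11:90336536-90390895 and that of Mecom at chr3:29951296-30548008, both on the minus strand of GRCm38.

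Meis1 and Hoxa9, the homeodomain pair, were highest in the same class and fell off more slowly. In the annotation, exons of Meis1 overlap those of Gm37818 and exons of Hoxa9 those of Mir196b on the same strand, and Mecom, Meis1 and Runx1 have antisense partners (Mecomos, Gm16140 and Gm26626), so reads of the antisense pairs cannot be told apart where the counting did not use strand, and strand does not separate the same-strand overlaps. Meis1 (chr11:18879817-19018985) had 423 CPM in FMT-young and 354 CPM in FMT-aged HSC or MPP-like cells, and 106 CPM in FMT-young and 104 CPM in FMT-aged cells of cluster 11. Early myeloid progenitor-like cells had 81.4 CPM of Meis1 in FMT-young and 56.2 CPM in FMT-aged, and those of the basophil, eosinophil or mast cell-like class had 70.6 CPM in FMT-young and 62.4 CPM in FMT-aged. Early myeloid progenitor-like cells came before the basophil, eosinophil or mast cell-like class in FMT-young and after it in FMT-aged, so these classes are not ordered. Hoxa9 (chr6:52223100-52231089) had 148 CPM in FMT-young and 121 CPM in FMT-aged HSC or MPP-like cells. In cluster 11 it had 54.2 CPM in FMT-young and 52.2 CPM in FMT-aged, and in early myeloid progenitor-like cells 45.9 CPM in FMT-young and 46.5 CPM in FMT-aged. Its level remained at 22.2 CPM in FMT-young and 22.4 CPM in FMT-aged GMP-like cells (granulocyte-monocyte progenitors), whereas plasma-like cells had 0.631 CPM in FMT-young and 0.562 CPM in FMT-aged. The stem class exceeded all other cells 25.1-fold in FMT-young and 18.8-fold in FMT-aged for Meis1. For Hoxa9 it exceeded them 9.43-fold in FMT-young and 6.66-fold in FMT-aged.

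Mllt3 (chr4:87769925-88033364) had 2 separate places of high expression. T, NK or innate lymphoid-like cells had 81.6 CPM in FMT-young and 75.3 CPM in FMT-aged, and HSC or MPP-like cells had 74.2 CPM in FMT-young and 55.4 CPM in FMT-aged. Within the lymphoid class, the T cell cluster led by Trbc2, Trac, Maf and Izumo1r had 153 CPM in FMT-young and 144 CPM in FMT-aged. The cluster with Cd8a among its leading genes had 108 CPM in FMT-young and 76.3 CPM in FMT-aged, and the natural killer cluster led by Xcl1 and Ccl5 had 65.8 CPM in FMT-young and 66.4 CPM in FMT-aged. The progenitor classes were low, with 5.90 CPM in FMT-young and 7.10 CPM in FMT-aged GMP-like cells, below plasma-like cells with 27.5 CPM in FMT-young and 24.3 CPM in FMT-aged. Mllt3 was the member whose pattern over classes was least like that of the others.

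Of the heptad members, Erg, Lmo2 and Tal1 were highest in the stem class, and Lmo2 and Runx1 were spread widely. Erg (chr16:95359169-95586593) was sparse, with 136 UMIs or 24.1 CPM in FMT-young and 204 UMIs or 23.1 CPM in FMT-aged HSC or MPP-like cells, and with 12.9 CPM in FMT-young and 14.0 CPM in FMT-aged cells of cluster 11. Tal1 (chr4:115056426-115071755) had 63.5 CPM in FMT-young HSC or MPP-like cells (57.1 to 70.5) and 69.1 CPM in FMT-aged ones (63.7 to 74.8). Basophil, eosinophil or mast cell-like cells followed with 60.1 CPM of Tal1 in FMT-young and 40.1 CPM in FMT-aged, so that the order of the first 2 classes was not resolved in FMT-young. Lmo2 (chr2:103957986-103981878, plus strand) had UMIs in every compared class. It had 561 CPM in FMT-young and 608 CPM in FMT-aged HSC or MPP-like cells. Early myeloid progenitor-like cells had 343 CPM in FMT-young and 358 CPM in FMT-aged, and GMP-like cells 201 CPM in FMT-young and 208 CPM in FMT-aged. The lowest levels of Lmo2 were those of T, NK or innate lymphoid-like cells, 8.08 CPM in FMT-young and 7.31 CPM in FMT-aged. Free RNA made up an estimated 4.28% of that class in FMT-young and 3.22% in FMT-aged, by its Igkc and Jchain, and held 178 CPM of Lmo2 in FMT-young and 196 CPM in FMT-aged. The product of share and level is close to what the class had, and below it in both libraries. How much of the level came from free RNA was not tested.

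Runx1 (chr16:92601466-92826149) was highest outside the stem class. Basophil, eosinophil or mast cell-like cells had 451 CPM in FMT-young and 434 CPM in FMT-aged, against 239 CPM in FMT-young and 205 CPM in FMT-aged HSC or MPP-like cells. Inside that class, cells with more UMIs of the basophil genes Prss34 and Mcpt8 than of the eosinophil genes Prg2, Epx and Prg3 had 519 CPM in FMT-young (111 cells) and 452 CPM in FMT-aged (167 cells). Cells with the opposite balance had 172 CPM in FMT-young (35 cells, 133 to 220) and 246 CPM in FMT-aged (33 cells, 201 to 298). Between these sets of cells, the basophil side had the higher Runx1 level in both libraries. The class had 161 FMT-young and 246 FMT-aged cells, and those with equal numbers of both kinds of UMIs, or none, were in neither set. Their Runx1 level was not computed, so the place of the peak within the whole class is not settled. Cluster 21, which is led by Flt3, Irf8 and Runx2, had 228 CPM in FMT-young and 211 CPM in FMT-aged, and its order against the stem class differed between libraries. In all, 7 of the 9 members were highest in the HSC or MPP-like class of the 12 named classes in both libraries, compared with 10.2% of 11150 genes. Mllt3 and Runx1 were the other 2, and Tal1 also left this set under 4 of the 10 alternatives, with a higher level in basophil, eosinophil or mast cell-like cells of at least 1 library.

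**Figure D1:**
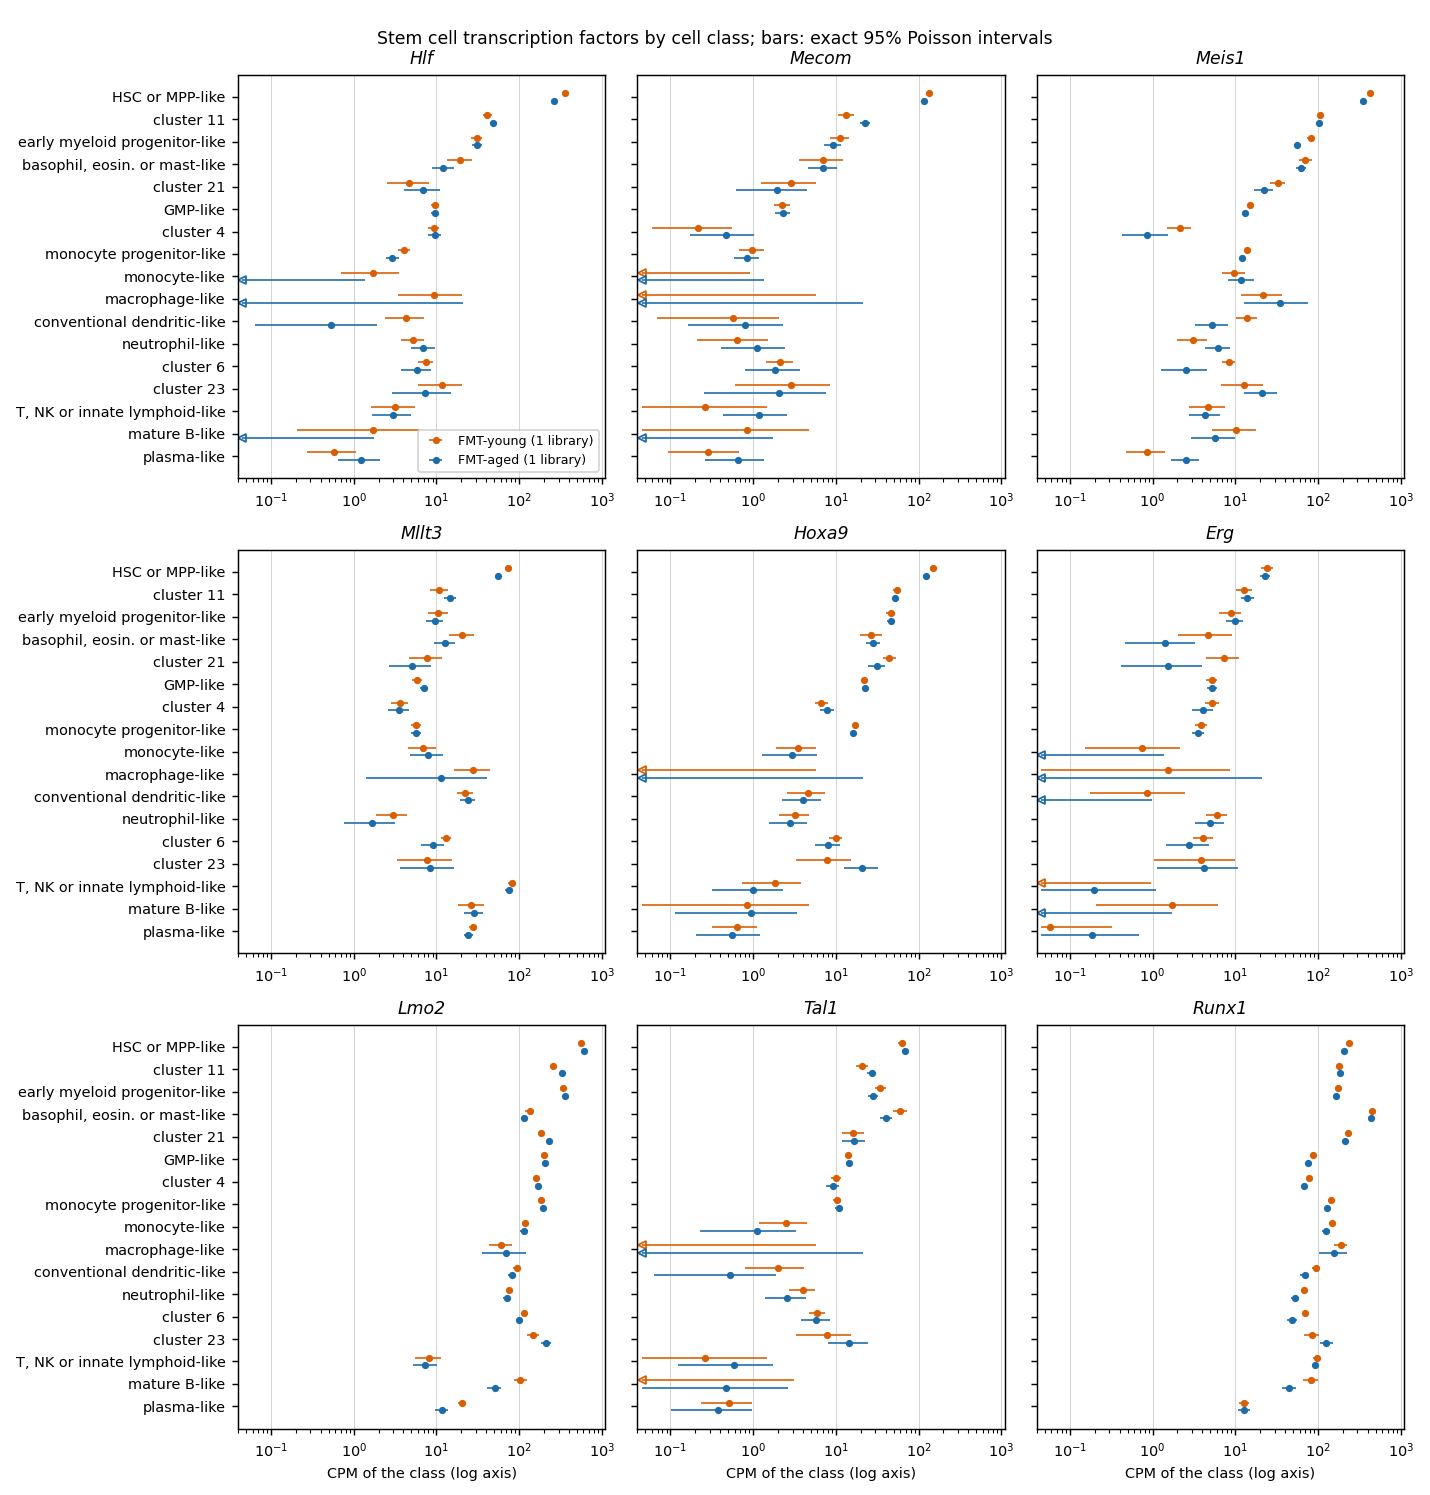
Level of each member (CPM, log axis) in the 12 named classes and 5 unnamed clusters, FMT-young in orange above FMT-aged in blue, 1 library each, with exact 95% Poisson intervals. Open triangles at the left edge mark classes without a UMI of the gene. Hlf and Mecom fall steeply below the HSC or MPP-like class, Lmo2 and Runx1 stay above 10 CPM in most classes, and Mllt3 has a second peak in T, NK or innate lymphoid-like cells.

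The comparison between donors asked whether these factors differ in the stem class of aged mice given young or aged microbiota. In HSC or MPP-like cells 7 of the 9 members had a higher CPM in FMT-young than in FMT-aged and 2 had a lower one. No member differed by 1.5-fold or more. Of the 11225 genes with at least 30 UMIs 9.21% did, and for 9 members a count of 0 is near that share. The interval of the ratio lay above 0 for 6 members, against 8.31% of all genes, and below 0 for 1 member, against 20.8% of all genes. These shares over all genes, here and below, are not matched for UMIs, on which the width of an interval depends. The sparsest member, Erg, had 136 UMIs in FMT-young and 204 in FMT-aged, where all genes start at 30 in both together. The median log2 ratio (FMT-young over FMT-aged) of the members was 0.22 and that of all genes was -0.11.

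Mllt3 and Hlf had the largest ratios. The log2 ratio of Mllt3 was 0.42 (exact conditional binomial interval 0.23 to 0.61) and that of Hlf 0.41 (0.33 to 0.50). Among the other members with an interval above 0, Hoxa9 stood at 0.29 (0.15 to 0.42), Meis1 at 0.26 (0.18 to 0.34), Runx1 at 0.22 (0.12 to 0.32) and Mecom at 0.20 (0.06 to 0.34). The ratio of Erg was 0.06 (-0.26 to 0.38), an interval too wide to give a direction. Lmo2 was lower in FMT-young with a ratio of -0.12 (-0.18 to -0.05), close to the median of all genes, and Tal1 had a ratio of -0.12 (-0.31 to 0.07).

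These ratios depended on which cells the class held. When each library was clustered on its own, which put 787 FMT-young and 868 FMT-aged cells in the class, the median ratio of the members was -0.050, and the ratios of Hlf, Mecom, Meis1 and Hoxa9 were -0.046, -0.26, -0.028 and -0.050. Other signs moved with the libraries in the same class. All 28 immediate early and stress genes on a list including Fos, Jun and Egr1 had a higher CPM in FMT-young, with a median log2 ratio of 1.19 and summed levels of 28470 CPM in FMT-young and 12666 CPM in FMT-aged. Reads of the rRNA locus and Lars2 (AY036118, Gm42418 and Lars2) summed to 2515 CPM in FMT-young and 6268 CPM in FMT-aged. When the class was clustered again, 8 of 10 sub-clusters drew over 80% of their cells from 1 library. The part of these differences in the ratios of the members was not tested.

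**Figure D2:**
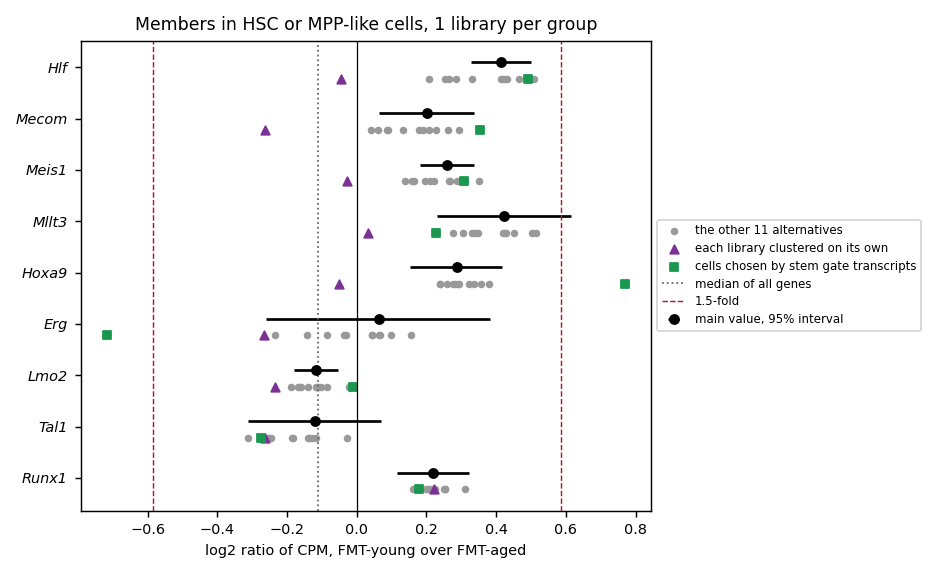
Log2 ratio (FMT-young over FMT-aged) of each member in HSC or MPP-like cells, black points with exact 95% intervals, and the value under 13 alternatives below each (grey points, purple triangle and green square). The dotted line is the median of all genes and the dashed lines mark 1.5-fold. With each library clustered on its own (triangles), Hlf, Mecom, Meis1 and Hoxa9 lie below 0.

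The class was then divided by transcripts that are not members, in groups chosen after the sub-clusters had been seen. A stem gate took cells with UMIs of at least 2 of Procr, Fgd5, Slamf1, Esam, Pdzk1ip1, Clca3a1 and Sult1a1 and none of Mpo, Elane or Cd79a. It held 54 FMT-young and 71 FMT-aged cells of the class. A Pf4 group had at least 5 UMIs of the megakaryocyte genes Pf4, Itga2b, Gp1bb and Gp9 and held 23 FMT-young and 41 FMT-aged cells. A Dntt group, with at least 3 UMIs of the lymphoid genes Dntt, Flt3 and Il7r, held 162 FMT-young and 302 FMT-aged cells. An Mpo group, with at least 5 UMIs of the granule genes Mpo, Ctsg, Prtn3 and Elane, held 302 FMT-young and 394 FMT-aged cells, and 153 FMT-young and 218 FMT-aged cells passed none of these. Depth differed between the groups, with a median of 4950.5 UMIs per FMT-young cell and 6099 per FMT-aged cell in the stem gate and of 10090.5 per FMT-young and 10456 per FMT-aged cell in the Dntt group.

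Hlf, Mecom and Mllt3 were high in the stem gate and several-fold lower in both the Dntt group and the Pf4 group. Hlf had 699 CPM in FMT-young and 479 CPM in FMT-aged gated cells, and 137 CPM in FMT-young and 149 CPM in FMT-aged cells of the Dntt group. Mllt3 had 241 CPM in FMT-young and 202 CPM in FMT-aged gated cells, and 23.1 CPM in FMT-young and 24.5 CPM in FMT-aged cells of the Dntt group. Mecom had 323 CPM in FMT-young and 248 CPM in FMT-aged gated cells, and 78.8 CPM in FMT-young and 62.3 CPM in FMT-aged cells of the Dntt group. In the Pf4 group Hlf had 170 CPM in FMT-young (41 UMIs) and 97.6 CPM in FMT-aged (36 UMIs). There Mecom had 58.2 CPM in FMT-young (14 UMIs) and 51.5 CPM in FMT-aged (19 UMIs). Mllt3 had 33.2 CPM in FMT-young (8 UMIs) and 29.8 CPM in FMT-aged (11 UMIs) in that group. Cells with none of the marker sets had 431 CPM of Hlf in FMT-young and 443 CPM in FMT-aged, 185 CPM of Mecom in FMT-young and 207 CPM in FMT-aged, and 112 CPM of Mllt3 in FMT-young and 93.7 CPM in FMT-aged. The intervals set the stem gate above these cells in both libraries for Mllt3 and in FMT-young alone for Hlf and Mecom. Meis1 and Hoxa9 fell less than these genes from the stem gate to the Dntt group. Meis1 had 623 CPM in FMT-young and 490 CPM in FMT-aged gated cells. Its lowest level was that of the Dntt group, 300 CPM in FMT-young and 236 CPM in FMT-aged, while the Pf4 group had 503 CPM in FMT-young and 515 CPM in FMT-aged. Hoxa9 had 208 CPM in FMT-young and 120 CPM in FMT-aged gated cells, and 151 CPM in FMT-young and 121 CPM in FMT-aged cells of the Dntt group. The Pf4 group had the highest levels of Runx1, 395 CPM in FMT-young (95 UMIs) and 301 CPM in FMT-aged (111 UMIs), where the interval overlaps that of the stem gate in FMT-aged alone. For Tal1 it had 108 CPM in FMT-young (26 UMIs) and 119 CPM in FMT-aged (44 UMIs), which the intervals do not separate from the stem gate with 95.7 CPM in FMT-young and 113 CPM in FMT-aged. The Pf4 group also had low Hoxa9, 37.4 CPM in FMT-young (9 UMIs) and 59.6 CPM in FMT-aged (22 UMIs).

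**Figure D3:**
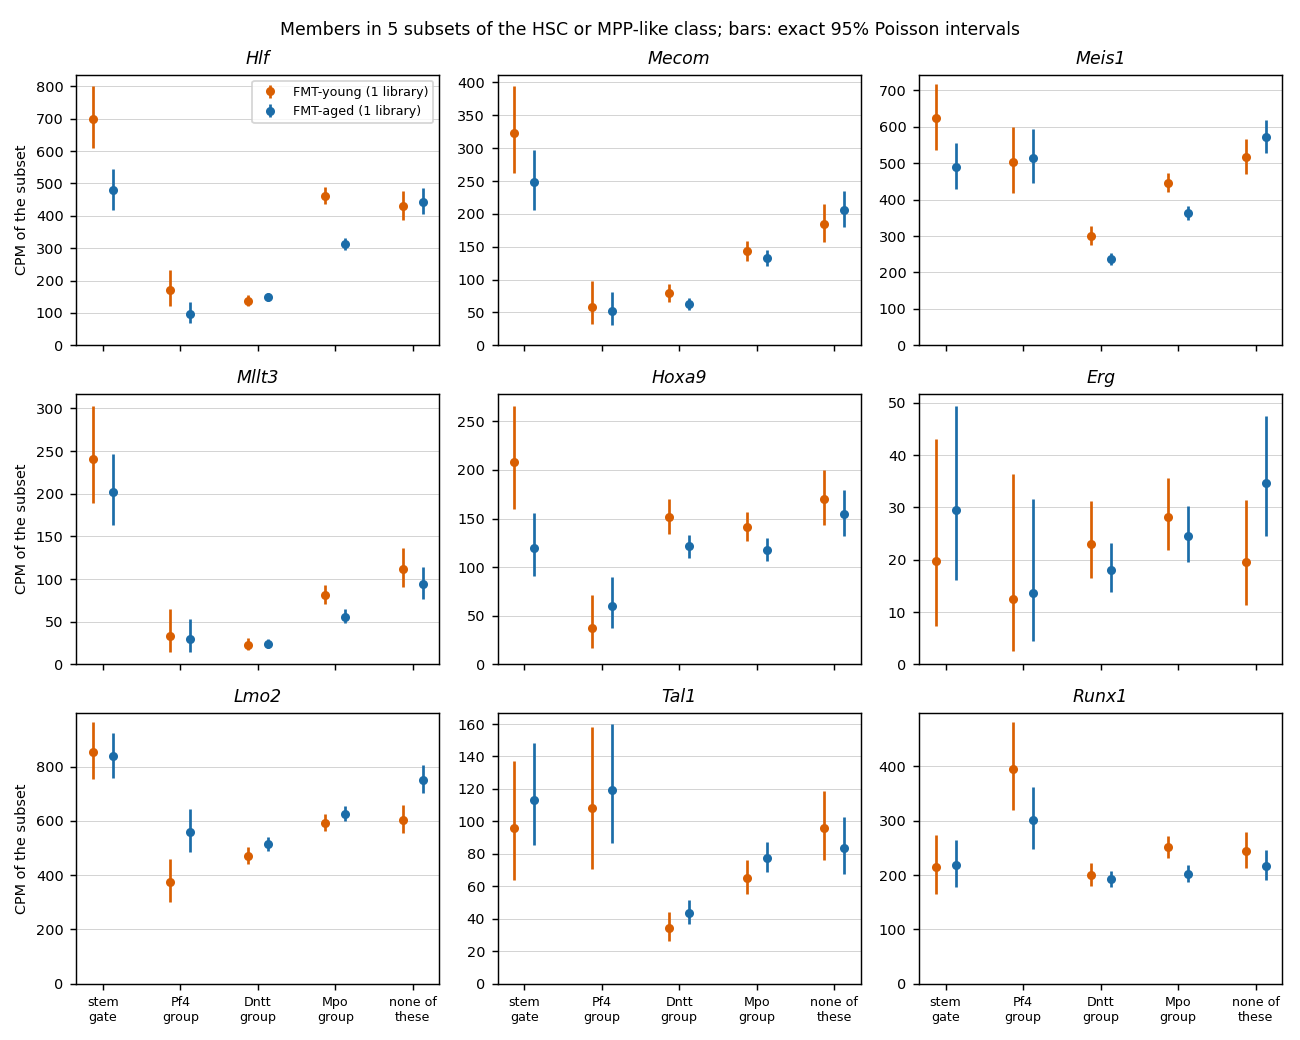
Level of each member (CPM) in 5 subsets of the HSC or MPP-like class, FMT-young in orange left of FMT-aged in blue, 1 library each, with exact 95% Poisson intervals. Hlf, Mecom and Mllt3 are high in the stem gate and low in the Dntt and Pf4 groups, and Runx1 is highest in the Pf4 group.

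Between the libraries, Hoxa9 and Hlf had the highest ratios in the stem gate. The log2 ratio was 0.79 (0.25 to 1.34) for Hoxa9 and 0.55 (0.27 to 0.82) for Hlf, while Erg, on 6 UMIs in FMT-young and 14 in FMT-aged, had -0.57 (-2.24 to 0.90). Meis1 stood at 0.35 (0.064 to 0.63), and Mecom, on 98 UMIs in FMT-young and 118 in FMT-aged gated cells, at 0.38 with an interval that includes 0 (-0.019 to 0.78). The ratio of Hlf was also above 0 in the Mpo group, at 0.56 (0.44 to 0.68), and in the Pf4 group, at 0.80 (0.12 to 1.49), so that its interval lay above 0 in 3 of the 5 subsets. In the Dntt group it was -0.12 (-0.35 to 0.10), and in cells with none of the marker sets -0.04 (-0.24 to 0.16). Lmo2 had a ratio below 0 in 4 of the 5 subsets, with an interval below 0 in 3 of them, and a ratio of 0.03 (-0.20 to 0.26) in the stem gate. Hoxa9 had a ratio above 0 in 4 of the 5, with an interval above 0 in 3, and Runx1, Mecom and Mllt3 also had a ratio above 0 in 4, each with an interval above 0 in 1. When every subset was given the same weight in both libraries, the ratio of Hlf was 0.33, of Mllt3 0.33, of Hoxa9 0.28, of Meis1 0.21, of Runx1 0.20 and of Mecom 0.13.

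Single cells carried several members at once. After every cell was thinned to 2000 UMIs, which left out 7 HSC or MPP-like cells of each library, FMT-young cells of the class had UMIs of 2.92 members on average and FMT-aged cells of 2.65. At least 3 members were found in 58.4% of FMT-young cells (Clopper-Pearson 54.6 to 62.1%) and in 51.7% of FMT-aged cells (48.6 to 54.8%), and at least 5 in 14.7% of FMT-young and 11.2% of FMT-aged cells. Without thinning, the averages were 5.32 members in FMT-young and 5.16 in FMT-aged. Plasma-like cells, which should lack most of these factors, showed at least 1 member in 11.6% of 1147 thinned FMT-young cells and 8.61% of 685 FMT-aged cells, at unthinned median depths of 13893 UMIs in FMT-young and 14468.5 in FMT-aged. These shares are not a background rate for all members. Plasma-like cells had 27.5 CPM of Mllt3 in FMT-young and 24.3 CPM in FMT-aged, above the 14.3 CPM in FMT-young and 10.7 CPM in FMT-aged free RNA. At least 3 members were seen in 0 of the 1147 FMT-young and 0 of the 685 FMT-aged plasma-like cells, with exact upper bounds of 0.321% in FMT-young and 0.537% in FMT-aged. Early myeloid progenitor-like cells had at least 3 members in 7.22% of FMT-young and 4.17% of FMT-aged cells.

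The share of thinned HSC or MPP-like cells with a UMI was 68.6% in FMT-young and 69.1% in FMT-aged for Lmo2. For Meis1 it was 56.2% in FMT-young and 50.5% in FMT-aged, and for Hlf 45.6% in FMT-young and 38.2% in FMT-aged. Hlf was seen in 0.0872% of thinned FMT-young and 0.146% of FMT-aged plasma-like cells, so that its share in the stem class is far above the one in plasma-like cells. Erg was seen in 5.39% of FMT-young and 4.02% of FMT-aged thinned cells of the class and Mllt3 in 14.6% of FMT-young and 11.3% of FMT-aged ones, and cells without a UMI cannot be called negative at this depth. Free RNA, read in barcodes with under 100 UMIs, held 15.5 CPM of Hlf in FMT-young and 14.6 CPM in FMT-aged, and 178 CPM of Lmo2 in FMT-young and 196 CPM in FMT-aged. Pairs of members met in the same thinned cell about as often as the product of their shares gives, with a mean ratio of 1.10 over 36 pairs in each library and a range of 0.71 to 1.71. The highest pair in FMT-young was Mecom with Mllt3, found together in 44 cells where the product gives 25.8, against 38 FMT-aged cells where it gives 26.1. The highest pair in FMT-aged was Hlf with Mllt3, found together in 64 FMT-young cells where the product gives 45.6 and in 67 FMT-aged cells where it gives 43.9. These pair counts share cells and depth and are a description.

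**Figure D4:**
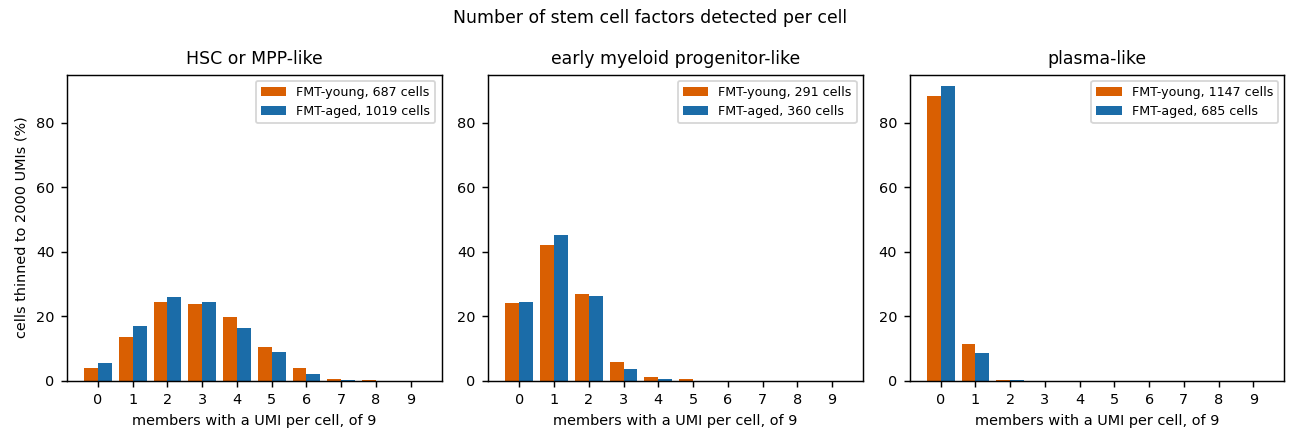
Share of cells (%) by the number of members with a UMI, after thinning each cell to 2000 UMIs, with FMT-young bars left of FMT-aged bars, 1 library each. HSC or MPP-like cells centre on 2 to 3 members, early myeloid progenitor-like cells on 1, and most plasma-like cells have 0.

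Known partners and other regulators were read in the same class from 7 lists with 60 genes, of which 57 had at least 30 UMIs. Ratios of 1.5-fold or more were found for 4 of the 57 in the direction of FMT-young, where 4.34% of all genes had such a ratio, and for 0 in the direction of FMT-aged, against 4.87%. Intervals lay above 0 for 11 of the 57 genes, against 8.31% of all genes, and below 0 for 4, against 20.8%. The median log2 ratio was 0.014, beside -0.11 for all genes. The 4 genes were the heptad factor Gata2, the elongation factors Aff4 and Ell2 that work with MLLT3, and Hmga2, a chromatin protein of fetal stem cells. The count was 1 with each library clustered on its own and 8 among cells chosen by stem gate transcripts alone. The share of all genes past 1.5-fold was not computed under either setting, and the gated cells were few (56 in FMT-young and 72 in FMT-aged). Gata2 had 214 CPM in FMT-young and 140 CPM in FMT-aged, a log2 ratio of 0.61 (0.50 to 0.73). Aff4 had 117 CPM in FMT-young and 67.4 CPM in FMT-aged, a ratio of 0.79 (0.63 to 0.95). Ell2 and Hmga2 had fewer than 80 UMIs in either library, with ratios of 0.71 (0.23 to 1.18) and 0.69 (0.19 to 1.19).

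The rest of the partner genes differed little. Of the heptad factors outside the members, Fli1 stood at 0.04 and Lyl1, a close relative of Tal1, at -0.23 (-0.38 to -0.08). In the LMO2 and TAL1 complex, 0 of 9 genes with enough UMIs passed 1.5-fold, and the E proteins Tcf4 and Tcf3 had ratios of 0.10 and -0.17. Among 10 HOX, PBX and MEIS genes 0 passed, with the homeodomain factors Hoxa5 at 0.32 (0.070 to 0.57) and Pbx2 at -0.29. Of the RUNX partners and relatives, the corepressor Tle4 had a ratio of 0.26 and the obligate partner Cbfb -0.16 (-0.34 to 0.02). Psip1, which tethers MLL complexes to chromatin, was the lowest of the MLLT3 list at -0.37 (-0.49 to -0.24). The bZIP and PR domain relatives all had ratios below 0 with intervals that include 0, Prdm16 at -0.13 and Tef at -0.25. Myb, a regulator of progenitor growth, stood at -0.15 (-0.23 to -0.08).

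Several of these genes were also concentrated in the stem class, where Hlf was 42.5-fold higher than in other cells in FMT-young and 27.7-fold higher in FMT-aged. Nkx2-3, a homeobox gene, was 220-fold higher there than in other cells in FMT-young and 106-fold higher in FMT-aged, at 39.8 CPM in FMT-young and 39.3 CPM in FMT-aged. Hoxa10 was 49.3-fold higher in FMT-young and 32.0-fold higher in FMT-aged, and Mycn 45.2-fold in FMT-young and 49.5-fold in FMT-aged. Factors of committed lineages on a separate list of 12 had 2 of 11 genes past 1.5-fold, both higher in FMT-young, Klf4 with a ratio of 1.53 (1.45 to 1.62) and Id2 with 0.97. Klf4 is also on the list of immediate early genes. Irf8, the factor of monocyte and dendritic cell fate, had the lowest ratio of that list at -0.48 (-0.67 to -0.28).

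**Figure D5:**
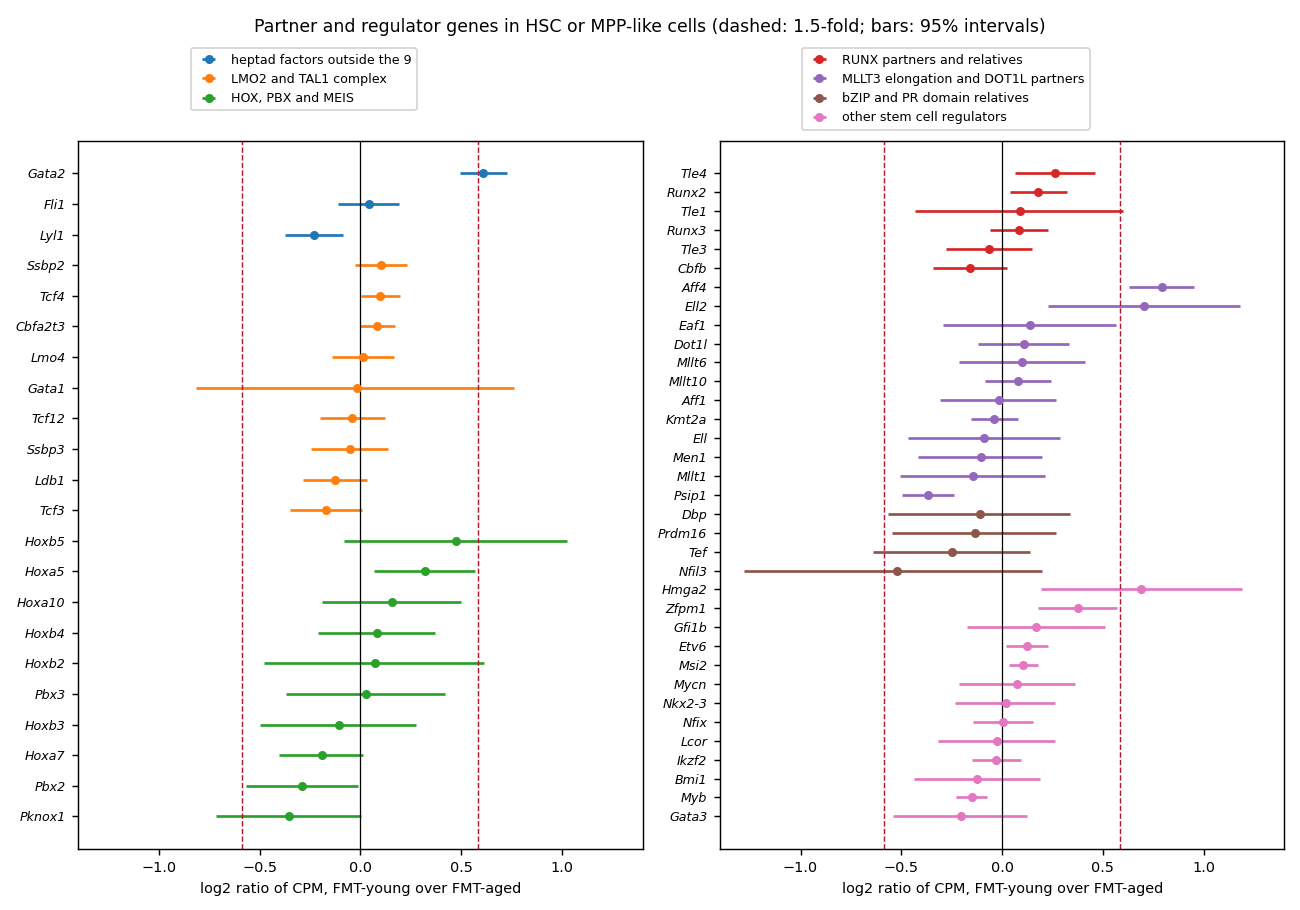
Log2 ratio (FMT-young over FMT-aged) of the 57 partner and regulator genes with at least 30 UMIs in HSC or MPP-like cells, coloured by list, with exact 95% intervals, 1 library per group. Dashed lines mark 1.5-fold, which Gata2, Aff4, Ell2 and Hmga2 pass on the right and no gene passes on the left.

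The genes with the most similar pattern were found by Pearson's r of log2(CPM + 10) over 24 profiles, the 12 named classes in 2 libraries, among 11150 genes with at least 500 UMIs. These profiles share libraries and clustering, and r is a description. Between members, r was highest for Hlf with Mecom at 0.98 and lowest for Mllt3 with Lmo2 at -0.28, and Tal1 with Hoxa9 reached 0.95. Outside the members, Hlf was most like Ppp1r9a (0.98), and Mecom was close to Vldlr (0.99), a lipoprotein receptor. Meis1 was nearest to Osbpl1a and Myct1, Hoxa9 to Zfp820 and Egfl7, Erg to Adgrl4 and Cyp2j9, and Tal1 to Tom1l1 and Rhobtb3, with r between 0.94 and 0.99. Mllt3 was nearest to Crim1 (0.92) and Pla2g16 (0.91), Lmo2 to Msh6 (0.91) and Ptov1 (0.90), and Runx1 to Dpf2 (0.93) and Atp13a3 (0.93).

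Other classes had other patterns. In cluster 6, which mixes immunoglobulin and granule genes and held 927 FMT-young and 206 FMT-aged cells, the ratios of all 9 members were above 0, with a median of 0.35 against 0.05 for all genes. In cluster 11, which came next after the stem class in Hlf and Mecom level, 7 of 9 ratios were below 0, with a median of -0.23 against -0.06 for all genes. In that cluster 4 intervals lay below 0, where 15.1% of all genes did. No member interval lay above 0 there, against 9.37% of all genes. Mecom had 13.4 CPM in FMT-young and 22.8 CPM in FMT-aged cells of that cluster, a ratio of -0.77 (-1.15 to -0.40). In GMP-like cells the median was -0.01 against -0.05 for all genes, with 2 intervals above 0 and 2 below 0 where 12.7% and 26.6% of all genes had such intervals. Early myeloid progenitor-like cells had a median of 0.05, with Meis1 at 0.53 (0.33 to 0.73) as the 1 member with a higher level by over 0.5 on the log2 scale.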

How the data were processed

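Libraries were made with the 10x Chromium 3' v3 kit, per the labels' protocols, and the deposited files hold raw UMI counts per gene and barcode for all 6794880 barcodes of each library, made with Cell Ranger 3.1.0 per the file headers and on mm10 per the submitters' processing notes. Doublets were treated with scanpy's Scrublet, removing the top 0.8% of scores per 1000 cells, 1139 cells in FMT-young and 1031 in FMT-aged. Cells of both libraries were clustered together (2000 variable genes without the members, 40 principal components, 20 neighbours, Leiden resolution 1.0; scanpy 1.11.5, Python 3.11.15). A class was named where at least 3 of its markers were in 10% of cells and 1.5-fold above other cells; clusters led by genes of another class, plasma clusters with Kit in 20% of cells and clusters of 1 library stayed unnamed, the last 2 rules set after clusters were seen. Counts were summed per class and library. Ratios were called at 1.5-fold among genes with at least 30 UMIs, and a seeded simulation tested that code. Intervals are exact 95% ones (Poisson, Clopper-Pearson or conditional binomial; scipy 1.17.1), and 14 alternatives were computed. Named genes are all members, up to 2 most similar genes of each, and the genes of each list with the highest and lowest interval bound nearest 0; the genes past 1.5-fold, Fli1, Nkx2-3, Hoxa10 and Mycn were added after values were seen. Some genes of the lists, of the stem gate and of the most similar genes are not reported here, and the stem gate and partner lists were computed without theirs, a change made after values were seen. The members and lists were chosen with earlier results of these data known. Gene loci are from GENCODE vM21. Strand use of the counting is not given in the sources used here. Plasmacytoid dendritic, pro-B and 2 unnamed clusters, with under 50 cells in a library, were not compared.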

Additional observations from a re-analysis of the deposited data

Results flagged for a closer look

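In 9 cases with at least 30 UMIs, a member's ratio interval lay on 1 side of 0 in HSC or MPP-like cells and on the other side in another class. The difference between classes was not tested, and how often all genes had such opposite intervals was not computed. Hlf and Mecom, higher in FMT-young in the stem class, had log2 ratios of -0.23 and -0.77 in cluster 11. Meis1 had a ratio of -1.02 in neutrophil-like cells, at 3.08 CPM in FMT-young and 6.25 CPM in FMT-aged, and of -1.56 in plasma-like cells, at 0.861 CPM in FMT-young (15 UMIs) and 2.53 CPM in FMT-aged (27 UMIs). Different clusters hold most of the plasma-like class in each library, cluster 8 with 929 FMT-young and 5 FMT-aged cells and cluster 9 with 176 FMT-young and 649 FMT-aged cells. Within cluster 9 Meis1 had 2.03 CPM in FMT-young (5 UMIs) and 2.04 CPM in FMT-aged (20 UMIs). The interval of that ratio (-1.77 to 1.46) includes the ratio of the whole class, so these counts do not decide whether the difference is present there. Mllt3 had a ratio of -0.27 in GMP-like cells, and Runx1 of -0.58 in cluster 23, a small cluster with antigen presentation and granule genes together. Lmo2, lower in FMT-young in the stem class, had ratios of 0.20 in cluster 6, which mixes immunoglobulin and granule genes, 1.04 in mature B-like cells and 0.80 in plasma-like cells, where it was 0.72 within cluster 9 and -1.55 (-2.76 to -0.46) in the smaller plasma cluster 27. In mature B-like cells that was 103 CPM of Lmo2 in FMT-young and 50.5 CPM in FMT-aged, beside 178 CPM in FMT-young and 196 CPM in FMT-aged free RNA.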

How the results depend on the processing

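No paired analysis was possible because each group has 1 library. Clustering each library on its own turned the median ratio of the members to -0.050 and the ratios of Hlf to -0.046, Mecom to -0.26, Meis1 to -0.028 and Hoxa9 to -0.050, left 1 partner gene past 1.5-fold in place of 4, and put the log2 ratio of the stem class share at -0.21 in place of -0.63; the cause was not tested. That share ratio was -0.35 with at most 5% mitochondrial UMIs and -0.45 at resolution 2.0, and negative under all 8 alternatives that give it. Among cells chosen by stem gate transcripts 1 member, Hoxa9 (0.77), and 8 partner genes passed 1.5-fold. These were only 56 FMT-young and 72 FMT-aged cells. The share of all genes past 1.5-fold was not computed for them or for the libraries clustered on their own, so these counts have no background beside them. Erg at -0.72 had under 30 UMIs among the gated cells (6 in FMT-young, 15 in FMT-aged). Under the other 13 alternatives no member passed. The median ratio ranged from 0.14 to 0.31 under the other 12 alternatives, 1 of which (the same subset weights in both libraries) was chosen after seeing the data. Runx1 and Mllt3 stayed above 0, and Lmo2 and Tal1 below 0, under all 13, while Erg had 6 values above 0. TMM scaling added 0.09 to every ratio. With genes of at least 1 UMI, 31.8% of 16714 genes passed 1.5-fold, on few counts. The depth limits Erg, Tal1 and Mllt3 most.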
